A study of Mus musculus with 24 samples.

Results

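Aminoacyl-tRNA synthetases were compared between control and Hira CKO left ventricle as a family of 38 genes, of which 20 encode cytosolic enzymes, 16 mitochondrial enzymes and 2 the scaffold proteins Aimp1 and Aimp2. The members were taken by gene symbol, and 34 of the 38 had a named probe, 46 probes in all, among 17742 named genes with 20377 probes. Dars, Yars, Iars2 and Yars2 had no probe annotated with their symbol alone and were not analysed here. The family was chosen on a measured value, the high difference of Lars in the same comparison, and its other members by name alone, so its values and its counts of calls are given as a description.

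Hira encodes a chaperone that places histone variant H3.3 into chromatin outside of DNA replication, and the study deleted it in cardiomyocytes to follow the consequences for heart gene expression. Free-wall left ventricle away from scars was taken at 6 weeks of age from 4 control mice and 4 Hira CKO mice on a mixed C57BL6/J;129S1/SvImJ background. Control mice were aMHC-cre Tg/+; Hira flox/+ and Hira CKO mice were aMHC-cre Tg/+; Hira flox/-. Both groups therefore carried the Cre transgene, which the α-myosin heavy chain promoter drives in cardiomyocytes, and both carried a Rosa26 YFP/+ reporter. Cells without Cre kept 2 intact Hira alleles in control and 1 in Hira CKO mice, and cardiomyocytes with Cre kept 1 in control mice. Each RNA was hybridized to 3 single-colour arrays, 24 in all, and the mouse was the replicate (n = 4 per group). No source says whether the mice shared litters, although each control mouse has an animal number close to that of a Hira CKO mouse.

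Aminoacyl-tRNA synthetases join an amino acid to its matching tRNAs, which then carry it to the ribosome. Most serve a single amino acid, and Eprs holds the glutamyl and the prolyl activity in 1 protein. Cytosolic enzymes serve the translation of nuclear genes, and a separate nuclear-encoded set serves the mitochondrial ribosome, which makes core subunits of the respiratory chain, on which heart muscle depends. Several cytosolic enzymes sit with the scaffold proteins Aimp1, Aimp2 and Eef1e1 in the multisynthetase complex, leucyl-tRNA synthetase also reports leucine to the growth-controlling kinase complex mTORC1, and many cytosolic synthetase genes are targets of the amino acid stress factor ATF4.

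Promoter windows are shown for the mitochondrial members that were lower in Hira CKO, because a gene of the opposite strand begins beside one of them, and for Aars and Iars, the pair with the larger differences among the 4 members whose window held an ATF4-type motif. The windows run from 250 bases before to 50 bases after the start of the gene and come from RefSeq on the build GRCm38.p6, in which 25 of the 34 measured members had an entry. Lars, Cars, Hars, Nars, Rars, Vars, Wars, Hars2 and Pars2 had none, so their promoters were not searched. The motifs searched on both strands were TGATGNAA, the core that ATF4 dimers bind in amino acid response elements, and CCGGAAG, the core bound by ETS-family factors. Overlap between the 2 motifs was not examined. Capitals mark matches, in the reverse complement where the motif lies on the other strand. The Fars2 window held neither motif.
Sars2, chr7:28741718-28742017, plus strand: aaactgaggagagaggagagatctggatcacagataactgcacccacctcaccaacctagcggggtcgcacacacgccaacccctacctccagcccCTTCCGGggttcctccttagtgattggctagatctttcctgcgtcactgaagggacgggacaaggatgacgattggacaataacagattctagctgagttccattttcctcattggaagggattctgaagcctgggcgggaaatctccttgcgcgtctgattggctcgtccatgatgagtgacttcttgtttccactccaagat
Fars2, chr13:36117393-36117692, plus strand: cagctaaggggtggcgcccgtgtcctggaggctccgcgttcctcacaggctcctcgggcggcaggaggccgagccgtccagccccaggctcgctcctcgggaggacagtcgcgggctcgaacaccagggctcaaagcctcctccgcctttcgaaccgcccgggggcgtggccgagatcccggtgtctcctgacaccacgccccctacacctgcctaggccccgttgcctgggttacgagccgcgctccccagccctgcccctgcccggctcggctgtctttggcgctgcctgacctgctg
Cars2, chr8:11550722-11551021, minus strand: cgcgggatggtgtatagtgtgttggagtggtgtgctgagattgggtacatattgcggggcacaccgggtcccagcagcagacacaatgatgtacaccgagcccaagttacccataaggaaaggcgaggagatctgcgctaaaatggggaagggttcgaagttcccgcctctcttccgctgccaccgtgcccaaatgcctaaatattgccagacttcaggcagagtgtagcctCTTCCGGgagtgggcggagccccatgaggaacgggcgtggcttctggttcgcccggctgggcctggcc
Aars, chr8:111033592-111033891, plus strand: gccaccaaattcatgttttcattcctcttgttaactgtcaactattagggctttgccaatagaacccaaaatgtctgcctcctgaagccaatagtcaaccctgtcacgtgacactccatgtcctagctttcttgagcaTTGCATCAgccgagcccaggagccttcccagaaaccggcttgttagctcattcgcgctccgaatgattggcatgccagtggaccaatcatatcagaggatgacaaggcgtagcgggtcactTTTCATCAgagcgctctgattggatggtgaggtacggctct
Iars, chr13:49681880-49682179, plus strand: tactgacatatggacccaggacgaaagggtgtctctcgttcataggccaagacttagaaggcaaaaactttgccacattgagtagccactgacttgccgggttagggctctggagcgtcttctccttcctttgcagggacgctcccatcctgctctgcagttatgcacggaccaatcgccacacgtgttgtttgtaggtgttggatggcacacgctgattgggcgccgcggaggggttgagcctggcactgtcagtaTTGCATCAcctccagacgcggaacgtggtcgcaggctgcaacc

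TGATGNAA was found in the windows of 4 of 11 cytosolic members, Aars, Gars, Iars and Tars (36.4%), and of 0 of 12 mitochondrial members. It was found in 4.51% of the 27025 genes with a window and in 3.28% of the 13979 of them measured on these arrays. CCGGAAG was found in 5 of 11 cytosolic, 4 of 12 mitochondrial and 11 of all 25 members (44%), beside 9.93% of all genes with a window and 14.3% of those measured. A match is a description of the letters and was not tested as a binding site.

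The arrays hold intensity values that the authors scaled to a common median of 513.2, so a change shared by all genes alike cannot be seen in them. A level below is the probe intensity of a mouse, the mean of its 3 arrays on the log2 scale turned back into intensity, and a difference is Hira CKO minus control on the log2 scale, from limma over all 17742 genes with Benjamini-Hochberg adjustment. A gene was called at an adjusted p under 0.05. The median difference of all genes was −0.14, and it was −0.02 after quantile normalization. Differences below are given as measured and are not corrected for that shift, so counts are given against 0 and, for the family and for its cytosolic and mitochondrial members, against the all-gene median. The split of calls over all genes moved with the scaling, from 876 higher and 1712 lower as reported to 1251 and 973 after quantile normalization and to 1267 and 866 after cyclic loess normalization. Hira itself was dim and its difference of −0.20 (SE 0.13, adjusted p = 0.282 from limma) does not check the genotype. The cardiomyocyte markers Tnnt2, Actc1 and Mb were bright in all 8 mice, and Tnni3 was low in mouse control_6497 only (83786, against 241275 or more in the other 7 mice). In bulk tissue, fewer cells of a type and less RNA per cell cannot be told apart.

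Of the 34 measured members, 1 was called higher (Lars), beside 4.94% of all genes, and 3 were called lower (Sars2, Fars2 and Cars2), beside 9.65% of all genes. These all-gene shares belong to the values as scaled by the authors, and nothing is read from the counts. The other 30 did not pass. In 6 members every Hira CKO mouse lay above every control mouse, beside 7.78% of all genes, and in 5 every one lay below, beside 15.6% of all genes. The groups of the other 23 overlapped. The median difference of the family was 0.05, or 0.04 without Lars, and 26 of the 34 lay above the all-gene median. The difference was under 0.2 in size in 22 members, beside 7825 of all 17742 genes. With genes under 100 in both groups left out, the all-gene median was −0.08. The members were not matched to other genes by intensity, so these counts are not read as a trait of the family.

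**Figure D1:**
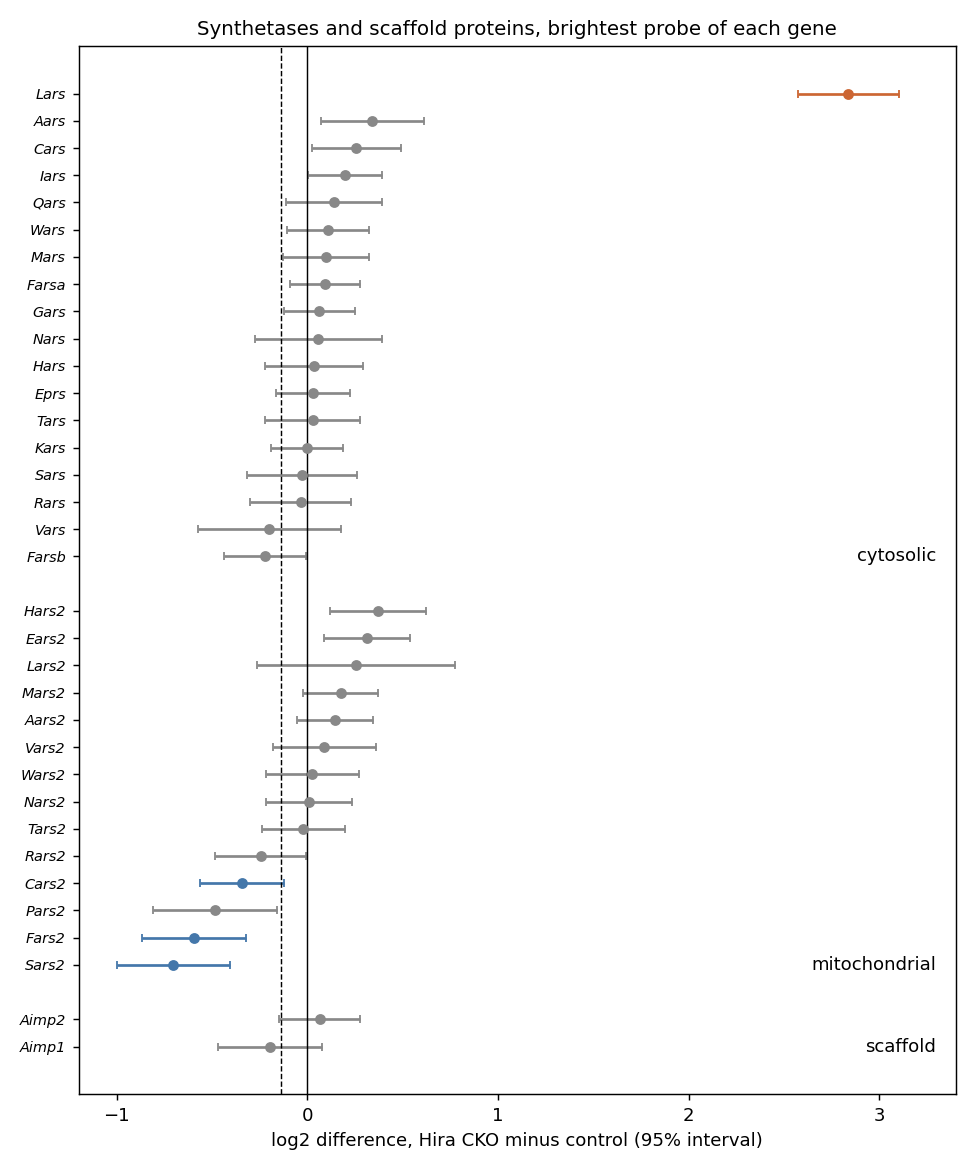
Difference of each measured member between Hira CKO and control (x axis, log2 intensity, with 95% interval, n = 4 mice per group), grouped as cytosolic, mitochondrial and scaffold. Orange marks a gene called higher, blue a gene called lower and grey a gene that did not pass, and the dashed line is the median of all genes, −0.14. Lars stands alone at 2.84, the other cytosolic members lie between −0.22 and 0.34, and the mitochondrial members lie between −0.70 and 0.37.

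Lars encodes the cytosolic leucyl-tRNA synthetase. Per-mouse values are given throughout for control mice control_6706, control_6299, control_6675 and control_6497 and then for Hira CKO mice CKO_6300, CKO_6499, CKO_6672 and CKO_6707. The Lars probe read 23521, 20253, 26366 and 22225 in control and 139961, 176282, 176628 and 167725 in Hira CKO. All 4 Hira CKO mice were far above all 4 control mice, and mouse CKO_6300 was the lowest of them. The group means were 23092 ± 2563 and 165149 ± 17290 (SD, n = 4 each), a difference of 2.84 on the log2 scale (SE 0.12, 95% interval 2.57 to 3.10), or 7.15-fold. Single arrays ran from 18743 to 26964 in control and from 115908 to 194620.0 in Hira CKO, so no array of one group reached the other. Lars ranked 12 of 17742 genes by the size of its rise, and 190 genes had a rise of at least 1 on the log2 scale. It has 1 probe on the array, at an unknown position in the transcript, so no second probe stands beside this value.

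The other 17 cytosolic members lay between −0.22 and 0.34 and 0 were called (12 above 0 and 5 below, 15 above the all-gene median, median 0.06). Of these, 4 had an unadjusted p under 0.05 from limma, beside 6487 of all 17742 genes. The highest were Aars, the alanyl enzyme (0.34, SE 0.12, adjusted p = 0.0804 from limma), Cars, the cysteinyl enzyme (0.26, SE 0.10, adjusted p = 0.111 from limma) and Iars, the isoleucyl enzyme (0.20, SE 0.08, adjusted p = 0.129 from limma). In Cars and Iars every Hira CKO mouse lay above every control mouse. The Aars probe read 1574, 1636, 1912 and 1739 in control and 2080.0, 1880.0, 2154 and 2603 in Hira CKO, where mouse CKO_6707 was highest and mouse CKO_6499 fell within the control range. Iars and Aars are the members of the promoter set above with the ATF4-type motif, and Gars, the glycyl enzyme, and Tars, the threonyl enzyme, which share it, had differences of 0.06 and 0.03.

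The smallest values belonged to Farsb, the beta subunit of the phenylalanyl enzyme (−0.22, SE 0.09, adjusted p = 0.124 from limma), whose Hira CKO mice all lay below the control mice, and to Vars, the valyl enzyme (−0.20, SE 0.17, adjusted p = 0.402 from limma). Farsa, the alpha subunit of the same enzyme as Farsb, had a difference of 0.09. A test of the difference between the 2 subunits was not made. The glutaminyl (Qars, 0.14), tryptophanyl (Wars, 0.11), methionyl (Mars, 0.10), asparaginyl (Nars, 0.06), histidyl (Hars, 0.04), glutamyl-prolyl (Eprs, 0.03), seryl (Sars, −0.03) and arginyl (Rars, −0.04) enzymes were all within 0.15 of 0. Kars, the lysyl enzyme of both compartments, had means of 18885 ± 965 and 18884 ± 950.0 (SD, n = 4 each).

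By catalytic class, the 9 measured class I cytosolic members, which include Lars, had a median of 0.11 with 1 called. The 9 class II members had a median of 0.04 with 0 called (2 at an unadjusted p under 0.05, from limma). Over all 17742 genes, 4.94% were called higher, 9.65% were called lower and 6487 had an unadjusted p under 0.05 from limma. Of the 10 measured genes of the multisynthetase complex, only Lars was called and the median was 0.08. Its scaffold genes Aimp1 and Aimp2 had differences of −0.20 (adjusted p = 0.258 from limma) and 0.06 (adjusted p = 0.644 from limma), with overlapping groups. Their median of −0.07 was 0.01 after quantile normalization, so no direction is given for the pair.

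The 14 measured mitochondrial members ran from −0.70 to 0.37 with a median of 0.02, and 3 of them were lower, beside 9.65% of all genes. Of the 14, 8 lay above 0 and 9 above the all-gene median. A difference under 0.2 in size was seen in 6 of the 14 and in 14 of the 18 cytosolic members. Over all genes it was seen in 7825 of 17742. In 4 mitochondrial members all Hira CKO mice lay below all control mice, beside 15.6% of all genes, and in 3 they all lay above, beside 7.78%. The spread of the 2 sets was not compared by a test.

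Sars2 encodes the mitochondrial seryl-tRNA synthetase, whose loss of function in people causes a renal and pulmonary disease of infancy. The probe read 3515, 2777, 3025 and 2447 in control and 1894, 1731, 1572.5 and 1999 in Hira CKO mice. Every Hira CKO mouse was below every control mouse, and this also held for single arrays, which ran from 2311 to 3658 in control and from 1514 to 2208 in Hira CKO. The difference was −0.70 (SE 0.13, adjusted p = 0.0127 from limma), so control was 1.63-fold higher.

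Fars2 encodes the mitochondrial phenylalanyl-tRNA synthetase, a single-chain enzyme unlike its cytosolic counterpart. Its brightest probe read 21051, 19468, 23718 and 23173 in control and 14035, 13157, 13323 and 17568 in Hira CKO. The groups did not overlap, and mouse CKO_6707 lay nearest to the control mice. The difference was −0.60 (SE 0.12, adjusted p = 0.0167 from limma), or 1.51-fold higher in control. Without mouse control_6675 the adjusted p was 0.0563 and the difference −0.55. Fars2 had 3 probes, and all 3 were below the control mice in every Hira CKO mouse. Over all 20377 probes the differences were −0.60 (adjusted p = 0.0177 from limma), −0.86 (adjusted p = 0.0188 from limma) and −1.03 (adjusted p = 0.0576 from limma).

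Cars2 encodes the mitochondrial cysteinyl-tRNA synthetase, which also makes cysteine persulfides. It read 13221, 12998, 13370 and 13314 in control, a narrow range, and 9022, 11819, 10725 and 10331 in Hira CKO. All Hira CKO mice were lower, with mouse CKO_6300 the lowest, and the difference was −0.34 (SE 0.10, adjusted p = 0.0483 from limma). This call lies at the threshold and held in 7 of 21 alternatives and in 1 of the 8 ways to leave out a mouse. The 7 include the fits with the mouse as a random block, which were made on single arrays. After quantile normalization the difference was −0.26 (adjusted p = 0.111 from limma).

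**Figure D2:**
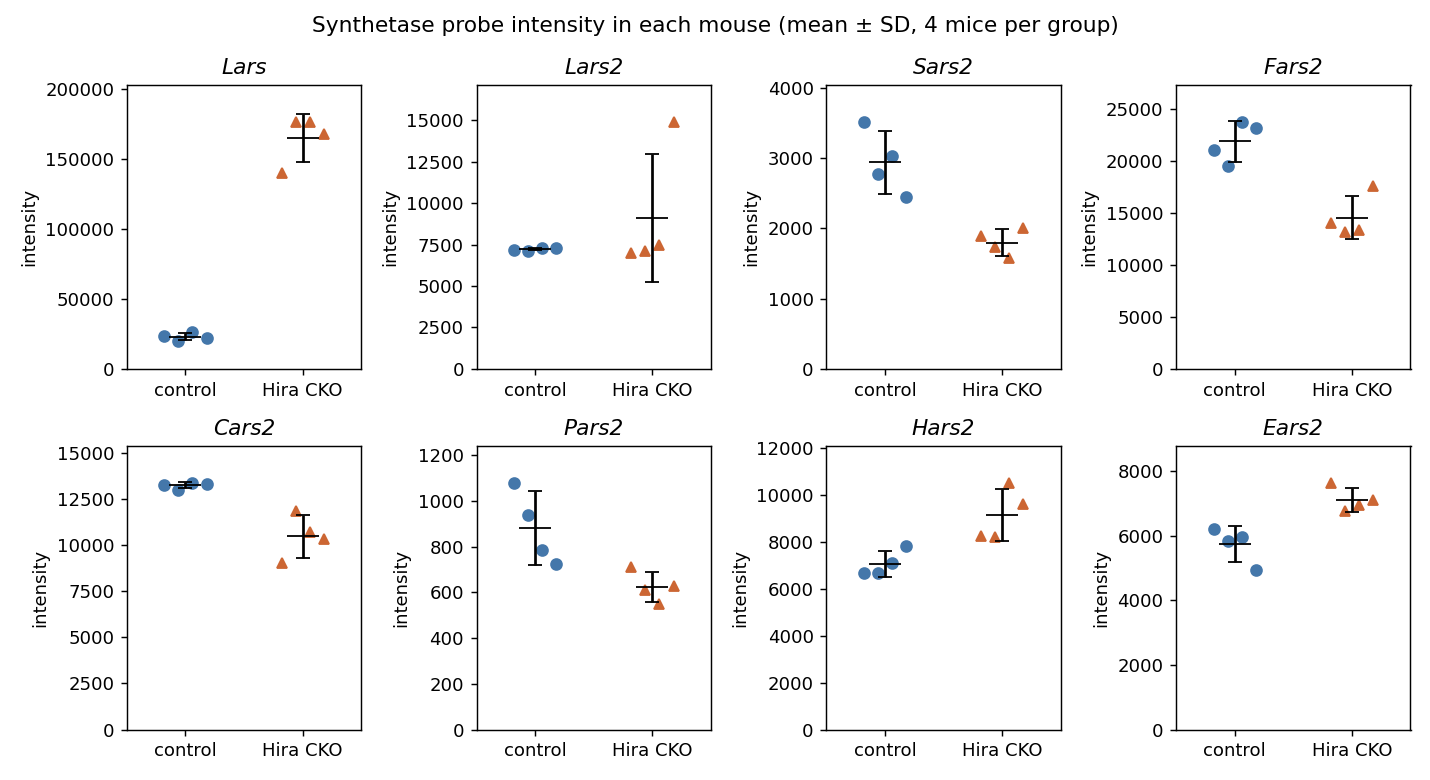
Probe intensity of 8 members in each mouse (y axis, linear from 0), control as blue circles and Hira CKO as orange triangles, with mean and SD of 4 mice. The groups do not overlap in any panel but Lars2, where 1 Hira CKO mouse at 14904.5 stands apart from 7 mice between 7010 and 7495.

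Pars2, Hars2, Ears2 and Lars2 are given with every mouse although they did not pass, as Aars was above, a choice made after their values were seen. Pars2, the prolyl enzyme, read 1080, 938, 786 and 723 in control and 710, 611, 548 and 630.1 in Hira CKO (−0.49, SE 0.14, adjusted p = 0.0527 from limma). The lowest control mouse lay just above the highest Hira CKO mouse. Hars2, the histidyl enzyme, read 6691, 6652, 7077 and 7830.5 in control and 8267, 8224, 10514 and 9606 in Hira CKO (0.37, SE 0.11, adjusted p = 0.0542 from limma). Ears2, the glutamyl enzyme, read 6214, 5845, 5963 and 4928 in control and 7636, 6754.5, 6936 and 7098 in Hira CKO (0.31, SE 0.10, adjusted p = 0.0619 from limma). Both had every Hira CKO mouse above every control mouse, opposite in direction to Pars2. After quantile normalization Hars2 (adjusted p = 0.0187 from limma), Ears2 (adjusted p = 0.0375 from limma) and Pars2 (adjusted p = 0.0446 from limma) all passed, with differences of 0.44, 0.37 and −0.49.

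Lars2, the mitochondrial counterpart of Lars, read 7176.5, 7145, 7321 and 7291 in control and 7010, 7088, 7494.5 and 14904.5 in Hira CKO. Its mean difference of 0.26 (adjusted p = 0.441 from limma) came from mouse CKO_6707 alone, whose 3 arrays read 17313, 13822 and 13835. Without that mouse the difference was −0.01 (adjusted p = 0.957 from limma). Lars in mouse CKO_6707 lay among the other Hira CKO mice. The remaining mitochondrial members were Mars2, the methionyl enzyme (0.17, adjusted p = 0.173 from limma, every Hira CKO mouse above control), Aars2, alanyl (0.14), Vars2, valyl (0.09), Wars2, tryptophanyl (0.03), Nars2, asparaginyl (0.01), Tars2, threonyl (−0.02), and Rars2, arginyl (−0.24, adjusted p = 0.129 from limma).

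Enzymes for the same amino acid in the 2 compartments can be set side by side, for each amino acid with 1 measured gene of its own in both. Lars at 2.84 stood beside Lars2 at 0.26, Sars at −0.03 beside Sars2 at −0.70, Cars at 0.26 beside Cars2 at −0.34, Hars at 0.04 beside Hars2 at 0.37, and Vars at −0.20 beside Vars2 at 0.09. Rars at −0.04 stood beside Rars2 at −0.24 and Aars at 0.34 beside Aars2 at 0.14. Mars (0.10) and Mars2 (0.17), Nars (0.06) and Nars2 (0.01), Tars (0.03) and Tars2 (−0.02), and Wars (0.11) and Wars2 (0.03) were closer. Differences within these pairs were not tested. Across members, mouse CKO_6707 was the highest Hira CKO mouse in 14 of 34 and mouse CKO_6300 the lowest in 12, while mouse control_6675 was highest of its group in 16 and mouse control_6497 lowest in 17.

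Probes of the same gene gave a second view of 9 members, 6 with 2 probes and 3 with 3. Over all named probes, 1 of the 46 member probes was higher, beside 4.53% of all probes, and 4 were lower, beside 9.65% of all probes. The 4 lower probes were those of Sars2, 2 of Fars2 and a dim Tars2 probe (74.11 ± 6.46 and 50.8 ± 11.7, SD, n = 4 each, adjusted p = 0.0481 from limma), whose brightest probe had a difference of −0.02. All probes had the same sign in 4 of the 9 genes. The dim second Wars2 probe, at −0.42 with groups that did not overlap (adjusted p = 0.0592 from limma), stood beside a brightest probe at 0.03. Hars2 had 0.37 and 0.19, Eprs 0.03 and 0.10, Mars2 0.17 and −0.13, Vars2 0.09 and −0.11, and Aimp2 0.06 and −0.17. Hars had 0.04, −0.14 and 0.07, and the remaining Tars2 probe had −0.13. Cars2, called lower over genes, did not pass over all probes (adjusted p = 0.0501 from limma).

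**Figure D3:**
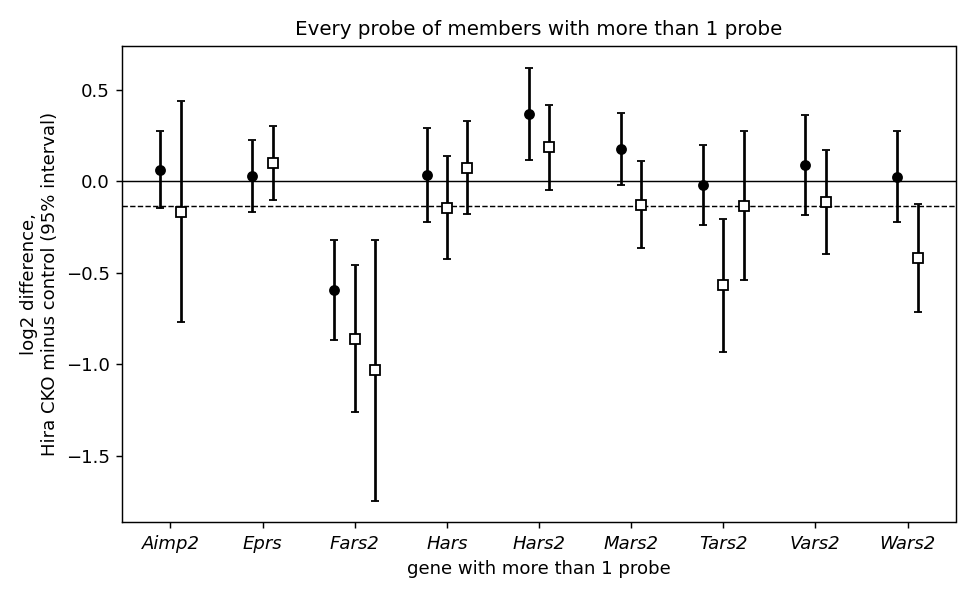
Difference of every probe (y axis, Hira CKO minus control, log2 intensity, with 95% interval, n = 4 mice per group) for the 9 members with more than 1 probe (x axis). Filled circles are the brightest probe, open squares the others, and the dashed line is the all-gene median. The 3 Fars2 probes lie together at −0.60, −0.86 and −1.03, while Tars2, Wars2 and Mars2 have probes that differ in size or sign.

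The measured genes next to the called members were read for changes shared along the chromosome. Around Lars, Plac8l1 was higher (0.50, adjusted p = 0.0212 from limma), at a dim 106 ± 10.9 in control and 150 ± 12.9 in Hira CKO (SD, n = 4 each), and Sh3rf2 (0.61) and Grxcr2 (0.68), on the same side, had adjusted p of 0.1 and 0.0976 from limma. The 3 genes on the other side, Rbm27, Pou4f3 and Gpr151, had differences of −0.24, −0.27 and −0.80 and did not pass. All 6 were far from the 2.84 of Lars. Next to Fars2, which was lower, Ppp1r3g, a subunit that directs protein phosphatase 1 to glycogen, rose from 574 ± 162 to 4385 ± 1077 (SD, n = 4 each, difference 2.94, adjusted p = 0.000304 from limma). The other 5 neighbours of Fars2 and the 6 each of Sars2 and Cars2 did not pass. The nearest to passing was Naxd beside Cars2 (−0.33, adjusted p = 0.0509 from limma).

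**Figure D4:**
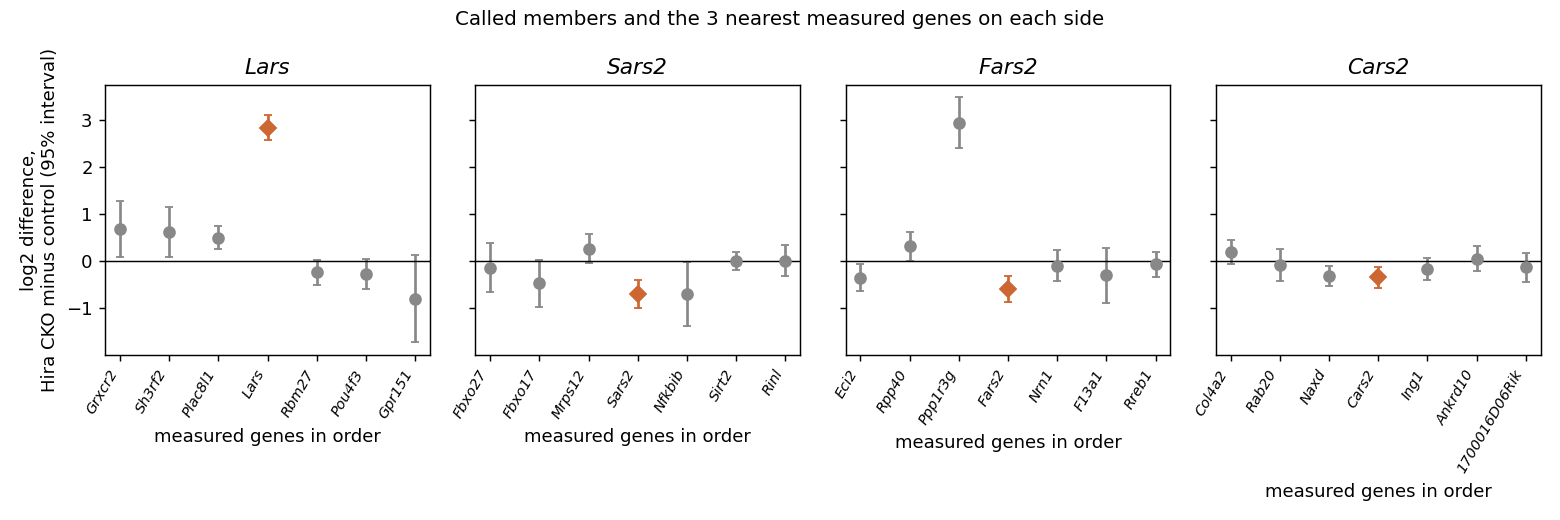
Difference (y axis, Hira CKO minus control, log2 intensity, with 95% interval, n = 4 mice per group) of the 4 called members, as diamonds, and of the 3 nearest measured genes on each side, as grey circles, in chromosomal order (x axis, not to scale). Ppp1r3g at 2.94 stands beside Fars2 at −0.60, and no neighbour of Lars comes near its 2.84.

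Of the 25 members with a promoter entry, 6 had a measured gene that begins within 1000 bases and runs the other way. Sars2 begins 147 bases from Mrps12, which encodes a protein of the mitochondrial ribosome. Mrps12 read 35893, 35211, 41650 and 40584 in control and 38092, 52564, 53840.1 and 40930 in Hira CKO, with overlapping groups and a difference of 0.26 (adjusted p = 0.192 from limma), beside −0.70 for Sars2 in the same mice. Aimp2 and Pms2, a mismatch repair gene, begin 162 bases apart and had differences of 0.06 and −0.45 (adjusted p = 0.0441 from limma for Pms2). The other pairs did not pass on either side: Ears2 with Ubfd1 (0.31 and 0.12), Kars with Terf2ip (0.00 and 0.03), Rars2 with Orc3 (−0.24 and 0.17) and Aimp1 with Tbck (−0.20 and −0.27).

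Genes that work beside the synthetases were counted in lists. The counts of every related list stand beside 4.94% of all genes called higher and 9.65% called lower. An unadjusted p under 0.05 from limma was found in 6487 of all 17742 genes. Nothing is read from the list counts. Of 12 measured synthetase-related genes outside the family, 0 were higher, 3 were lower and the median was −0.04 (0.04 after quantile normalization). Lower were Qrsl1 and Gatc, subunits of the amidotransferase that completes glutaminyl-tRNA in mitochondria, while its remaining subunit, Gatb, had a difference of 0.05 and did not pass. Lower as well was Aarsd1, an alanyl-tRNA editing protein (−0.40, adjusted p = 0.0463 from limma, 0.0616 after quantile normalization). Qrsl1 read 21708, 16518.5, 21567 and 23664 in control and 11229, 15636.5, 13503 and 11797 in Hira CKO, which did not overlap (−0.68, adjusted p = 0.0215 from limma). Gatc read 6133, 5310, 5227 and 4517 against 3957, 3649, 3698 and 4387, again without overlap (−0.43, adjusted p = 0.0408 from limma).

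Of 35 measured ATF4 targets other than synthetases, 2 were higher, 1 was lower and the median was 0.08 (0.16 after quantile normalization). Mthfd2, a mitochondrial folate enzyme, rose from 383 ± 140.5 to 904.5 ± 260 (SD, n = 4 each, difference 1.27, adjusted p = 0.0217 from limma), and Ppp1r15a, which directs dephosphorylation of eIF2α, rose by 0.48 (adjusted p = 0.019 from limma). Cth, which makes cysteine from cystathionine, was lower (−0.90, adjusted p = 0.0369 from limma). Of 15 genes for the eIF2α kinases, eIF2, eIF2B, Gcn1, Impact and Ppp1r15b, 0 passed (3 at an unadjusted p under 0.05, from limma, and 1 higher after quantile normalization). Their median of −0.00 became 0.06 after quantile normalization. The smallest p was that of Ppp1r15b, the constitutive partner of Ppp1r15a (−0.37, adjusted p = 0.0592 from limma).

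Of 37 measured genes of leucine sensing and mTORC1, 3 were higher and 3 lower, with a median of −0.11 (−0.01 after quantile normalization). Rragd, a Rag GTPase, rose from 23118 ± 2525.5 to 36870.3 ± 3202 (SD, n = 4 each, difference 0.68, adjusted p = 0.00805 from limma). Kptn (−0.73, adjusted p = 0.00194 from limma), of the KICSTOR complex, Castor2 (−0.78, adjusted p = 0.00411 from limma), a relative of an arginine sensor, and Seh1l (−0.45, adjusted p = 0.024 from limma), of GATOR2, were lower. Of 22 genes for transport and breakdown of branched-chain amino acids, 1 was higher and 2 lower, with a median of −0.17 (−0.12 after quantile normalization). The amino acid transporter Slc43a2 was higher (1.08, adjusted p = 0.00213 from limma), at a dim 123 ± 8.46 in control and 262.5 ± 47.35 in Hira CKO (SD, n = 4 each). Mmut (−0.41, adjusted p = 0.0376 from limma) and Bckdk, the kinase that restrains the breakdown (−0.40, adjusted p = 0.049 from limma), were lower.

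Of 40 measured genes for tRNA transcription, processing and export, 3 were higher, 2 lower and the median was −0.07 (−0.06 after quantile normalization). Tsen54, of the tRNA splicing endonuclease (0.63, adjusted p = 0.00509 from limma), Rpp25 (1.07, adjusted p = 0.00576 from limma) and Ang, which cleaves tRNA (0.35, adjusted p = 0.0213 from limma), rose, and Pop7, like Rpp25 a subunit of RNase P (−0.67, adjusted p = 0.00599 from limma), fell. Of 46 tRNA modification genes, 1 was higher, 6 were lower and the median was −0.10 (−0.06 after quantile normalization). Trmt112, a partner of several methyltransferases (−1.32, adjusted p = 0.00798 from limma), Trmt44 (−0.47, adjusted p = 0.00805 from limma) and the tRNA thiolation enzyme Ctu1 (−0.60, adjusted p = 0.00889 from limma) were lower, and the pseudouridine synthase Pus1 was higher (0.51, adjusted p = 0.0115 from limma). Of 16 genes for delivery to the ribosome and elongation, Eif5a2 was higher (0.51, adjusted p = 0.0464 from limma) and Eef2k, the kinase of elongation factor 2, lower (−0.66, adjusted p = 0.049 from limma), with a median of −0.03 that was 0.04 after quantile normalization.

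**Figure D5:**
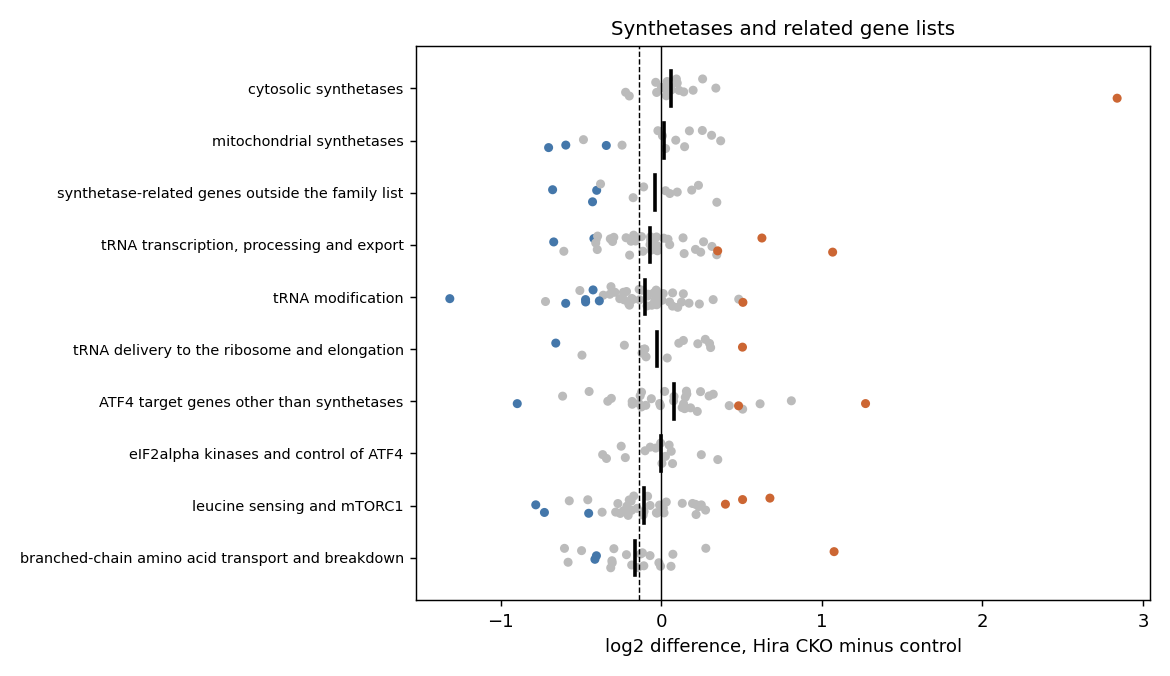
Difference of every measured gene (x axis, Hira CKO minus control, log2 intensity) in the synthetase sets and 8 related lists, with the median of each list as a bar. Orange dots were called higher, blue lower and grey did not pass, and the dashed line is the all-gene median of −0.14. List medians lie between −0.17 and 0.08, and Lars at 2.84 lies beyond every other dot.

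Markers of the cell types of the ventricle are given for comparison, and their part in the synthetase values was not tested. Their counts stand beside 4.94% of all genes called higher and 9.65% called lower. An unadjusted p under 0.05 from limma was found in 6487 of all 17742 genes. Of 9 measured cardiomyocyte markers 1 was called (Csrp3, −0.43, adjusted p = 0.0261 from limma), and their summed intensity ran from 1913191 to 2059841 in control and from 2007309 to 2203756.5 in Hira CKO. Of 10 fibroblast markers 0 were called (3 at an unadjusted p under 0.05, from limma), with sums of 282888 to 302429 and 270074 to 331657.5. The 10 endothelial markers, 0 called (3 at an unadjusted p under 0.05, from limma), summed to 158459 to 179036 and 138406 to 160836. Of 9 macrophage and myeloid markers 1 was called (Cd68, 0.70, adjusted p = 0.0272 from limma), with sums of 60178 to 99753 and 51316 to 84966. The 8 smooth muscle and pericyte markers, 0 called (4 at an unadjusted p under 0.05, from limma), summed to 152942 to 163154 in control and to 136930 to 147338 in Hira CKO, the only list whose sums did not overlap. This list includes Des and Abcc9, which are not restricted to those cells. A sum follows its brightest genes, so no change in a cell type is read from it.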

How the data were processed

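RNA from the left ventricle of 8 mice was hybridized to MouseOne Array Plus arrays of 1 colour, 3 for each mouse and 24 in all. The authors deposited probe intensity values after median scaling, so that every array has a median of 513.2. Values below 0 show that background was subtracted, by a method not given in the sources used here. Values under 1 were raised to 1 before log2. They numbered 0 to 1165 (median 3.5) of 26423 on control arrays and 1 to 2535 (median 96.5) on Hira CKO arrays, so dim genes were affected unevenly, and 0 of them were member values. Of the probes, 20377 had 1 gene symbol and were used, and the other 6046, without a symbol or with several, were not. Symbols were updated through the RefSeq gene table (GRCm38), and 38 that matched several genes were kept as given. The brightest probe by mean stood for each of 17742 genes.

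The 3 arrays of each mouse were averaged on the log2 scale, and groups were compared in limma 3.58.1 under R 4.3.3 (lmFit and eBayes without covariates), and p-values were adjusted over all genes by Benjamini-Hochberg with a threshold of 0.05. The number of mice limits the precision. The members, the gene lists and the naming rule were chosen with earlier results of these data known. Members that passed, or differed by at least 0.5 with groups that did not overlap, are given by mouse, other members by their difference (Aars, Pars2, Hars2, Ears2 and Lars2 also by mouse, a choice made after their values were seen), and each related list by its called genes in order of p, at most 4, or by its top 1 where none passed. The lists were the synthetase sets (cytosolic, mitochondrial, scaffold, complex, class I and II), synthetase-related genes, ATF4 targets, eIF2α control, leucine sensing, branched-chain amino acids, tRNA processing, tRNA modification, elongation and markers of 5 cell types. Alternatives were other normalizations, an offset of 50, genes under 100 in both groups left out, the mean of all probes, a trended robust prior, the methods' t-test, blocks for mouse and array number, each mouse or array number left out and, chosen after seeing the data, neighbouring animal numbers as a block. Plots and tables used Python 3.11.15, pandas 2.3.3 and matplotlib 3.10.9.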

Additional observations from a re-analysis of the deposited data

Results flagged for a closer look

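In 1 of the 68 sets of 4 mice examined (34 members in each group), 1 mouse lay far from the other 3. For Lars2, mouse CKO_6707 was at an intensity of 14904.5. On the log2 scale its gap to the nearest mouse was 0.911 of the range of the group, beyond Dixon's critical value for 4 mice. Chance alone gives such a gap in about 1 in 20 sets. All 3 arrays of that mouse were high, at 17313, 13822 and 13835, while the arrays of control mice ran from 6449 to 8380.3. Without the mouse the Lars2 difference was −0.01 in place of 0.26. The same mouse had the highest value of its group in 14 of 34 members.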

How the results depend on the processing

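Lars was higher in 21 of 21 alternatives (2.78 to 2.93 on the log2 scale) and Sars2 lower in 21 of 21 (−0.79 to −0.61), Fars2 in 20 (−0.83 to −0.50) and Cars2 in 7, and none of them changed sign. The family was chosen on the high Lars value in these same arrays, so the alternatives give Lars no separate support. Pars2 passed in 9 of 21, Hars2 in 8, Ears2 in 7, and Aars, Cars and Rars2 in 2. For Aars, Cars and Rars2 both passes came from the fits with the mouse as a random block. Those fits took single arrays as observations, with a correlation between arrays of a mouse shared by all genes (0.305, or 0.287 with array number). The counts of all members named above include those fits. With array number as a replicate block and the mouse as a random block, 5 members were higher and 5 lower, and 1415 of all genes were higher. The mean deviations of arrays of the same number correlated between the groups at −0.693, 0.144 and −0.687. Arrays numbered 1 and 3 thus deviated in opposite directions in the 2 groups, which does not show that array numbers pair the mice. The source of these opposite deviations was not tested. With mice of neighbouring animal numbers as a replicate block, chosen after seeing the data, 1 member was higher and 3 were lower, where Pars2 (adjusted p = 0.0431 from limma) took the place of Cars2 (adjusted p = 0.0573 from limma), and 831 genes were higher and 1971 lower. The deviations of such mice from their group means correlated at −0.0213, 0.252, 0.0377 and 0.236, which does not show that the numbers pair them. Within these pairs the Hira CKO mouse was higher in 4 of 4 for Aars (adjusted p = 0.109 from limma with the block) and lower in 4 of 4 for Rars2 (adjusted p = 0.104 from limma with the block). With the mouse as a random block alone, 5 members were higher and 5 lower, and 1454 genes were higher. Both fits with the mouse as a random block count arrays of the same mouse as observations, although the mouse is the replicate. Nothing is read from their larger counts of calls. The number of members higher was 3 with an offset of 50, a trended robust prior, quantile normalization or cyclic loess normalization, and 2 with dim genes left out or without array number 1. The median of the members was 0.106 under quantile and 0.11 under cyclic loess normalization, 0.0152 with the mean of all probes, 0.094 without array number 1 and 0.0025 without array number 3. Leaving out 1 mouse gave 1 to 2 members higher (2 without mouse CKO_6300), 1 to 3 lower (1 without mouse control_6675), a median of 0.0162 to 0.0825, and 434 (without mouse control_6675) to 916 genes higher and 503 (without mouse control_6675) to 3568 (without mouse CKO_6300) lower. Over all genes, 1251 were higher and 973 lower under quantile and 1267 and 866 under cyclic loess normalization, so that more genes were higher than lower, the opposite of the values as reported. The number lower was 985 by the methods' t-test, 978 without array number 2, and 597, with 481 higher, without array number 3. Under quantile normalization the related lists had 3 higher and 2 lower for ATF4 targets, 5 and 3 for tRNA processing, 2 and 4 for tRNA modification, 1 and 2 for synthetase-related genes, 1 and 3 for branched-chain amino acids and 2 and 1 for elongation. The cause of these shifts was not tested. Dim probes and the use of 4 mice per group limit what could be detected.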
